A study of Mus musculus with 8 samples.

Results

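The genes described here are 45 non-collagen genes of the extracellular matrix: glycoproteins such as fibronectin and the thrombospondins, proteoglycans, elastic fibre genes, laminins and their basement membrane partners. They were chosen by gene symbol, and each symbol had 1 row among the 78298 rows of the deposited table. They were measured in NIH3T3 cells, an immortalised line of mouse embryonic fibroblasts labelled wild type, grown in medium with fetal bovine serum. Of 8 poly(A) RNA-seq libraries, 4 were from cells given vehicle and 4 from cells given Mic-628, both for 1 day. The series title presents the agent as an inducer of the clock gene Period1, and the comparison asks which transcripts differed after 1 day with the compound. The labels give no dose and do not name the vehicle. The labels also number 4 batches, each with 1 library of either group, called replicates 1 to 4 below. Whether the libraries of a group were separate cultures is not stated, and p-values therefore rest on a spread between libraries that could be technical.

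Fibroblasts secrete fibronectin, fibrillins, collagens and proteoglycans, which assemble outside the cell into fibres and hydrated gels. Fibronectin is laid down first and serves as a template on which other matrix proteins are deposited, and matricellular proteins such as thrombospondins, tenascin C and osteopontin tune how cells attach and respond to growth factors. Proteoglycans carry long sulfated sugar chains, either in the matrix (versican, decorin, biglycan) or on the cell surface (syndecans, glypicans), and laminins, nidogens, perlecan and agrin build the sheet-like basement membrane.

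In brief, 15 of the 38 genes with enough reads for a test were lower with Mic-628, and 0 were higher. Over all tested rows, 2.25% were lower and 2.13% higher. The count of lower genes depended on the model and was 3 in the alternative with the fewest calls. Of the 15 lower genes, 5 were adhesive or matricellular, 3 secreted proteoglycan, 3 elastic fibre, 2 basement membrane and 2 cell-surface proteoglycan genes. Vcan (versican) fell by 22.8%, Spp1 (osteopontin) by 20.6%, Fn1 (fibronectin) by 17.5% and Bgn (biglycan) by 12.1%. Not called, with log2 fold changes between -0.03 and 0.03, were the abundant genes Fbln2 (fibulin 2), Efemp1 (fibulin 3) and Lamc1 (the laminin gamma 1 chain). In bulk RNA, fewer cells that express a gene and less of its RNA per cell cannot be told apart.

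The stretches of 250 bases upstream of the start are shown for 3 of the lower genes, of different classes, and for Efemp1, an abundant gene that was not called. These stretches are examples only, and counts over all matched genes follow them. They are RefSeq promoter windows of build GRCm38.p6, all on the plus strand, read 5′ to 3′ and ending at the base before the start site. They lie at chr5:104434861-104435110 (Spp1), chrX:73483351-73483600 (Bgn), chr4:130792287-130792536 (Sdc3) and chr11:28852955-28853204 (Efemp1). Capitals mark matches, on either strand, to the GC box GGGCGG or the TATA box TATAAA.
Spp1: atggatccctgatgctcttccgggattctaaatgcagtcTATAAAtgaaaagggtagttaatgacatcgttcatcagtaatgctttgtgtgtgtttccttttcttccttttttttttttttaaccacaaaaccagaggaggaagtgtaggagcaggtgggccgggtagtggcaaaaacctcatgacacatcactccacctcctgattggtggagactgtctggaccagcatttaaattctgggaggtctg
Bgn: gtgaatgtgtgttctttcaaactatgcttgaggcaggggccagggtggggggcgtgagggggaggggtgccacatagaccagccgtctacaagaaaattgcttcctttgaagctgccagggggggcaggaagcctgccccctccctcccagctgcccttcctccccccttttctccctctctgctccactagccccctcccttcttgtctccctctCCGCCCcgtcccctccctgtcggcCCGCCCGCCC
Sdc3: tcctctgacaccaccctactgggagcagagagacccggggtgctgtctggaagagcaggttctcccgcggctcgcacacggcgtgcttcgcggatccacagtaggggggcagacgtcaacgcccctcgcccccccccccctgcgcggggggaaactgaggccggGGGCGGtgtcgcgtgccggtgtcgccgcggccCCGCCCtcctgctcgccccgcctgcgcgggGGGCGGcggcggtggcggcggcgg
Efemp1: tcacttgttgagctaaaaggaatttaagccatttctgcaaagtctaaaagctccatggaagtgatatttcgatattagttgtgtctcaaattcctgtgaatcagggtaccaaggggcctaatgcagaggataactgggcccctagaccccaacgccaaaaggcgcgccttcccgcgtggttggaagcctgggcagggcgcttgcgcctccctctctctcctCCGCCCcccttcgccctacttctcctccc
The Spp1 window holds 1 TATA box match and 0 GC box matches, the Bgn and Sdc3 windows hold 3 GC box matches each, and the Efemp1 window holds 1. G and C make up 43.6% of the Spp1 window, 64.4% of that of Bgn, 76.4% of that of Sdc3 and 53.6% of that of Efemp1. For 23 of the 45 genes a window lay within 100 bases of the start of the measured transcript, and 6 of these genes were lower. Besides the GC and TATA boxes, 3 motifs were searched on both strands: the E-box CACGTG, which the clock activators CLOCK and BMAL1 can bind; AGGTCA, the core of the element bound by REV-ERB and ROR receptors; and the AP-1 site TGACTCA. In the windows of the 6 lower genes none of these 3 was found, GC boxes were in 3 and TATA boxes in 2. Among the 13 matched genes that were tested and not called, the E-box was in 0, AGGTCA in 1 (Sdc4), the AP-1 site in 1 (Ecm1), GC boxes in 12 and a TATA box in 1. Of the 4 matched genes too weak to test, Fbln1 held the E-box, Mfap2 AGGTCA and Postn a TATA box match. None of these 4 held an AP-1 site or a GC box. Over all 32851 windows the E-box is in 6.02%, AGGTCA in 14.0%, the AP-1 site in 4.46%, the GC box in 32.7% and the TATA box in 12.4%. These matches describe letters in these windows only and were counted anywhere in the 250 bases, whatever their distance from the start.

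Between 18.1 M and 23.2 M estimated read counts per library fell on listed transcripts (M, mega). Per1, named in the title as the induced gene, was at 20.5 to 22.9 CPM (counts per M, scaled with TMM) with vehicle and 118.4 to 129.8 CPM with Mic-628. The fibroblast markers were all detected. Vim (vimentin) and Col1a2 (a collagen I chain) fell with Mic-628, by 0.22 and 0.14 on the log2 scale (edgeR adjusted p = 5.37e-05 and 0.00708), and the other 8 of 10, among them Col1a1 (-0.0044) and Thy1 (0.0031), were not called. The summed FPKM (fragments per kilobase of exon and M reads) of the 10 fibroblast markers was 3595.2 to 3841.9 with vehicle and 3287.1 to 3399.6 with Mic-628. Of markers of other cell types, 8 had 0 counts in all libraries, which allows at most 0.0368 to 0.119 FPKM depending on the gene and library, counting error only. Summed FPKM was 1.38 to 1.67 with vehicle and 1.37 to 2.16 with Mic-628 for 7 epithelial markers, 0.184 to 0.348 and 0.184 to 0.223 for 7 endothelial, 2.61 to 3.05 and 2.94 to 3.37 for 7 macrophage and blood, 0.35 to 0.675 and 0.741 to 1.06 for 5 adipocyte, and 15.8 to 16.4 and 15.3 to 17.0 for 6 muscle markers, the last nearly all from Smtn (16.0). Adipoq and Lep, which define adipocytes, were at 0, as were Myod1 and Myog for muscle, Emcn and Cldn5 for endothelium, and Adgre1 and Cd3e for macrophages and T cells. Fabp4, of the adipocyte list, was at 0.312 to 0.659 FPKM with vehicle and 0.741 to 1.06 with Mic-628, from 6.5 to 21.5 counts per library (log2 fold change 0.91, edgeR adjusted p = 0.0748), and these ranges did not overlap. Csf1r, of the macrophage list, was at 1.45 to 1.68 and 1.67 to 1.87 FPKM (0.21, edgeR adjusted p = 0.149). The part of these markers in the results was not tested.

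The 45 genes together took 2.62% to 2.86% of all counts in the vehicle libraries and 2.41% to 2.48% in the Mic-628 libraries, and these ranges did not overlap. Fn1 alone took 1.29% to 1.48% and 1.15% to 1.21%. Without Fn1 the remaining genes took 1.33% to 1.4% and 1.26% to 1.31%, which also did not overlap.

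By edgeR's quasi-likelihood test at an adjusted p under 0.05, 15 of the 38 tested genes (39.5%) were lower, against a percentage over all 17128 tested rows of 2.25%. None was higher, where the table's percentage is 2.13%, and rows called in either direction make up 4.37%. Among the 35 members with a mean above 3 on the log2 CPM scale, 15 (42.9%) were lower, against 3.25% of all such rows. At an unadjusted p under 0.05, 22 members were lower and 3 higher, where 2905 of all 17128 tested rows passed in either direction. The median log2 fold change of the 38 genes was -0.10, and that of all tested rows -0.004. The changes were small: those called ran from -8.22% (Gpc4) to -24.5% (Dcn and Lama2), and 0 passed 1.5-fold. In FPKM, all 4 Mic-628 libraries lay below all 4 vehicle libraries for 18 of the 38 genes (47.4%), against 5.02% of all tested rows, and the reverse held for 0, against 5.68%. Every tested gene had at least 15.5 counts in each library, so none entered the test through 1 group alone. The genes were chosen with earlier results of these data known, so their excess over the shares of all rows is not independent support.

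The count of lower genes depended on the model. With the batch number as a block it was 13 in edgeR and 7 in DESeq2, and it was 5 by limma-trend on log2(FPKM + 1), 7 without batch 3 and 12 to 18 when single libraries were left out. Spp1, Vcan and Sdc3 were called under all 24 alternatives, Fn1 and Bgn under 23, Dcn under 21 and Thbs2 and Emilin1 under 20. Mfap5 and Lama2 were called under 19, Fbn1 under 17 and Thbs1 under 15. Tnc was called under 10, and Nid1 and Gpc4 under 12. The 5 genes called by limma-trend on log2(FPKM + 1) were Spp1, Vcan, Sdc3, Fn1 and Bgn, so the other 10, Dcn and Thbs2 among them, were not called by it. Without batch 3 the 7 lower genes were these 5, Dcn and Emilin1. No called gene changed direction under any of them.

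**Figure D1:**
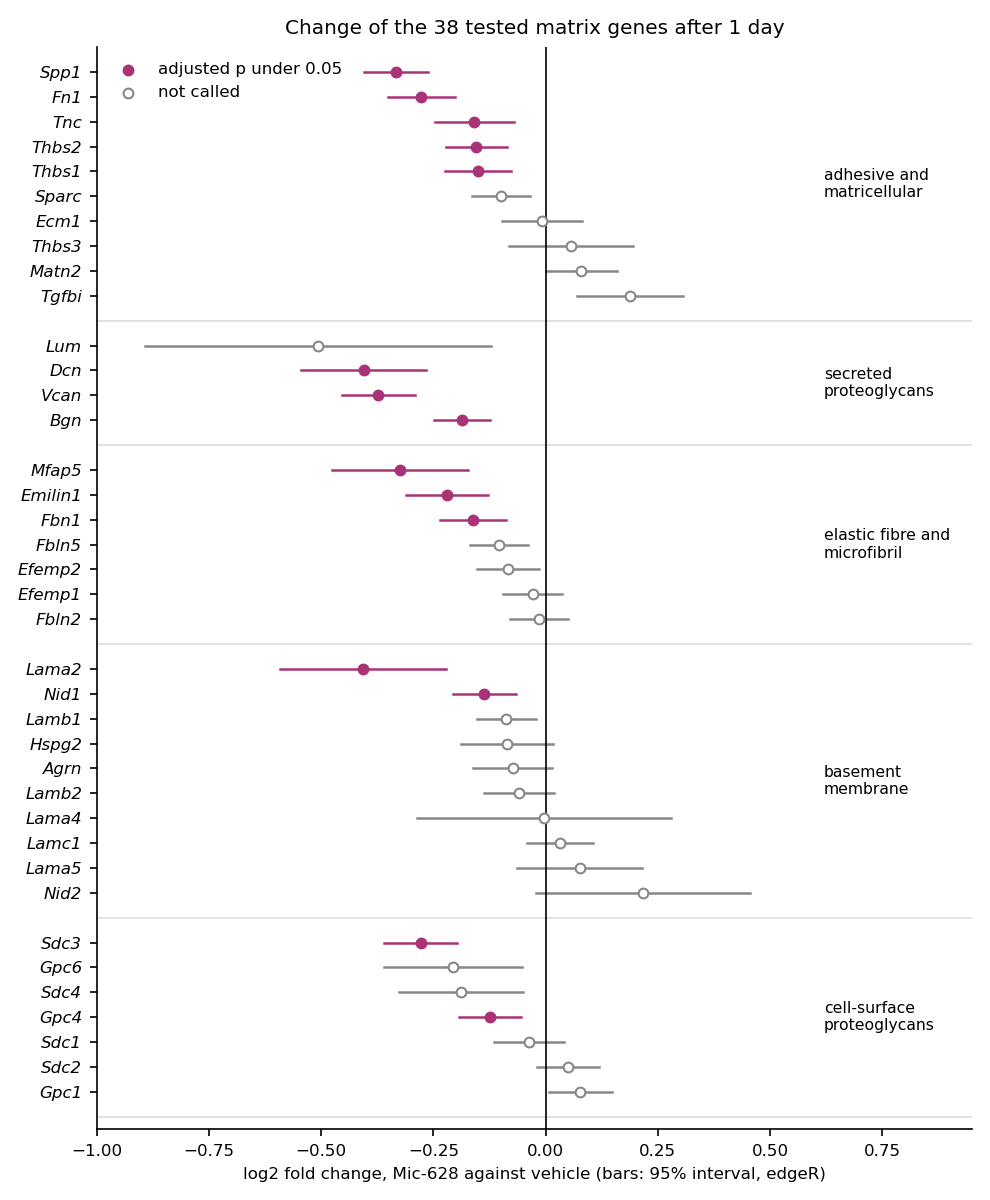
Log2 fold change of each tested gene with Mic-628 against vehicle (x axis) with its 95% interval from edgeR, n = 4 libraries per group, ordered within the 5 role groups. Filled points, all left of 0, are the 15 genes with an adjusted p under 0.05, and open points are the 23 not called.

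Levels of single libraries ran from 0 to 1667.6 FPKM. Compared per exon length, Fn1 was highest, at 1599.2 ± 93.4 FPKM (SD, n = 4) with vehicle and 1319.8 ± 26.5 (SD, n = 4) with Mic-628. It was followed by Bgn and Fbln2, and each of these 3 was above the next gene in all 8 libraries. Thbs1 and Efemp1 came next and had overlapping ranges, above Spp1 and Sparc. Nid1, Vcan, Tnc and Thbs2 formed a further group whose neighbours overlapped, between 81.8 and 130.6 FPKM. Most others, from Lamb1 down to Mfap5, lay between 8.43 and 80.4 FPKM. Thbs3, Gpc6, Lama5, Lama2, Nid2, Lama4 and Lum were weaker, between 0.323 and 5.32 FPKM. Fbln1, Postn, Mfap2, Fmod, Eln, Fbn2 and Mfap4 had at most 9 counts in any library and were not tested. Mfap4 had 0 counts throughout, which allows at most 0.07 to 0.0893 FPKM by library.

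**Figure D2:**
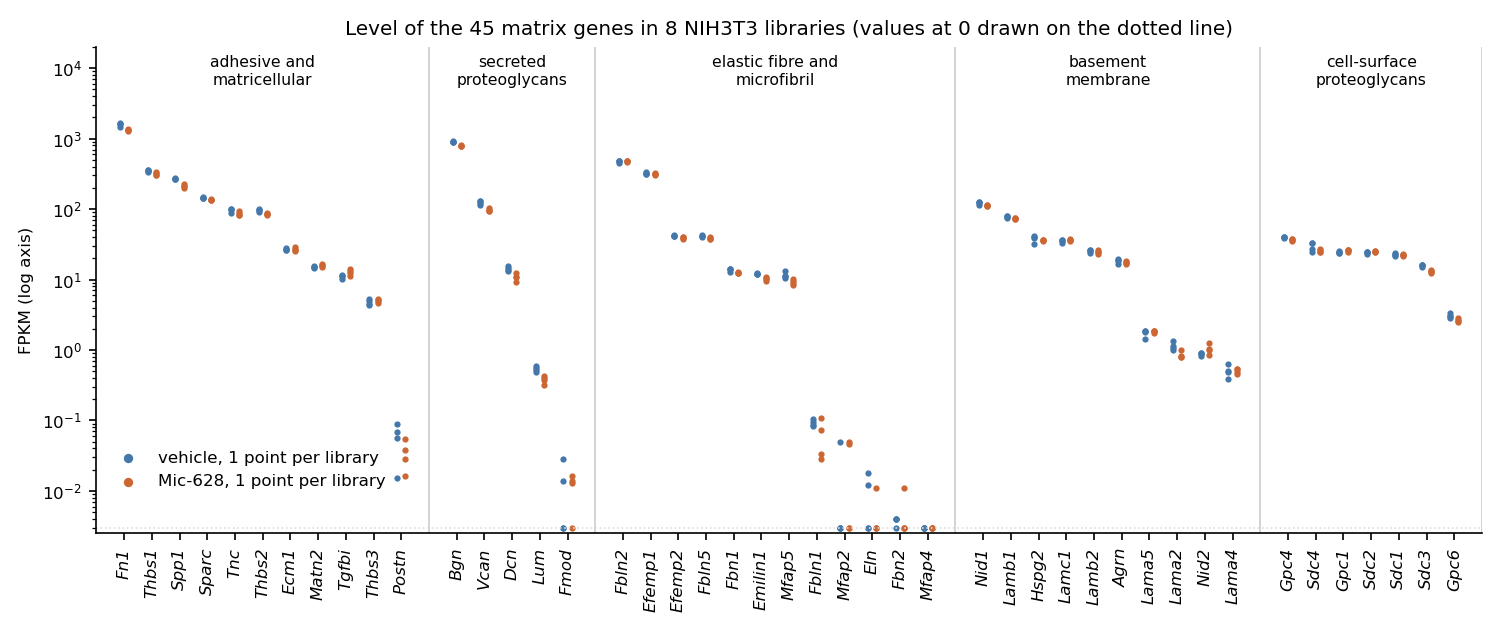
FPKM on a log axis for all 45 genes in the 8 libraries, 1 point per library, grouped by role and ordered by level, with values of 0 drawn on the dotted line. Fn1 and Bgn stand at the top of the first 2 groups, and the 7 untested genes lie at or below 0.107 FPKM.

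Among the fibronectin, adhesive and matricellular genes, 5 of 10 tested were lower (of 11, with a median log2 fold change of -0.13). Fn1, on chromosome 1 from 71624683 to 71692334 on the minus strand (mm39; all coordinates of genes are on this build), had 1461.2, 1628.7, 1639.2 and 1667.6 FPKM in vehicle replicates 1 to 4 and 1313.5, 1358.2, 1310.3 and 1297.2 FPKM in the Mic-628 replicates. The groups did not overlap, and vehicle replicate 1 was the lowest of its group. The log2 fold change of Fn1 was -0.28 (SE 0.0365, edgeR adjusted p = 1.66e-05), a fall of 17.5% with a 95% interval of 13.0% to 21.7% lower. Spp1 encodes osteopontin, a secreted phosphoprotein that binds integrins (chromosome 5, 104582984 to 104588916, plus strand). It was at 270.6, 274.7, 266.6 and 264.8 FPKM with vehicle and 227.4, 201.2, 211.9 and 214.3 FPKM with Mic-628. All vehicle libraries lay within a narrow range above the treated ones (log2 fold change -0.33, SE 0.0349, edgeR adjusted p = 5.29e-07). A row on the same strand, Gm42793, overlaps Spp1 and had 9.69% of its count, with a log2 fold change of -0.36, so a part of the reads may be shared.

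Thrombospondins 1 and 2 are large trimeric proteins that bind cells, proteases and TGF-beta. Thbs1 had 337.6, 363.4, 352.9 and 355.8 FPKM with vehicle and 336.8, 301.0, 322.5 and 308.8 FPKM with Mic-628. Its groups nearly touched, through replicate 1 of each group. Thbs1 fell (log2 fold change -0.15, SE 0.0358, edgeR adjusted p = 0.0136), and the call was lost without vehicle replicate 2 or Mic-628 replicate 2 (adjusted p = 0.0738 and 0.0709) and with the block in DESeq2 (0.058). Thbs2 had 96.3, 96.7, 98.8 and 90.3 FPKM with vehicle and 85.4, 88.9, 83.5 and 85.4 FPKM with Mic-628. Each Thbs2 value with Mic-628 was below each with vehicle (log2 fold change -0.15, SE 0.0327, edgeR adjusted p = 0.00537, and 0.154 without batch 3). Tnc encodes tenascin C, a matricellular protein abundant in growing and healing tissue. It had 88.9, 99.5, 100.5 and 97.3 FPKM with vehicle and 94.3, 81.8, 87.3 and 82.5 FPKM with Mic-628. These groups overlapped, since in batch 1 the treated library was the higher of the pair. The Tnc call (log2 fold change -0.16, SE 0.0426, edgeR adjusted p = 0.0312) was the least stable. It was lost with the block in edgeR (0.0659) and DESeq2 (0.774), and on leaving out any of vehicle replicates 2, 3 and 4 or Mic-628 replicates 2, 3 and 4 (0.125, 0.121, 0.0542, 0.125, 0.087 and 0.111).

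The other tested genes of the class were not called. Sparc (osteonectin, a collagen-binding matricellular protein) had 148.9, 145.3, 143.3 and 141.5 FPKM with vehicle and 134.9, 132.7, 133.6 and 138.9 FPKM with Mic-628. Its groups did not overlap, yet its adjusted p was 0.072 by edgeR (log2 fold change -0.10, 95% interval -0.16 to -0.04). Tgfbi, a secreted protein induced by TGF-beta that binds collagen, had the largest positive value of the class, 0.19 (95% interval 0.07 to 0.31, edgeR adjusted p = 0.0613). It was called higher without Mic-628 replicate 3 (0.24, adjusted p = 0.022), the treated library in which it was lowest, at 11.4 FPKM. Thbs3, Ecm1 and Matn2 had log2 fold changes of 0.06, -0.01 and 0.08 (edgeR adjusted p = 0.736, 0.96 and 0.295). Postn, which encodes periostin, was at 0.015 to 0.089 FPKM.

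**Figure D3:**
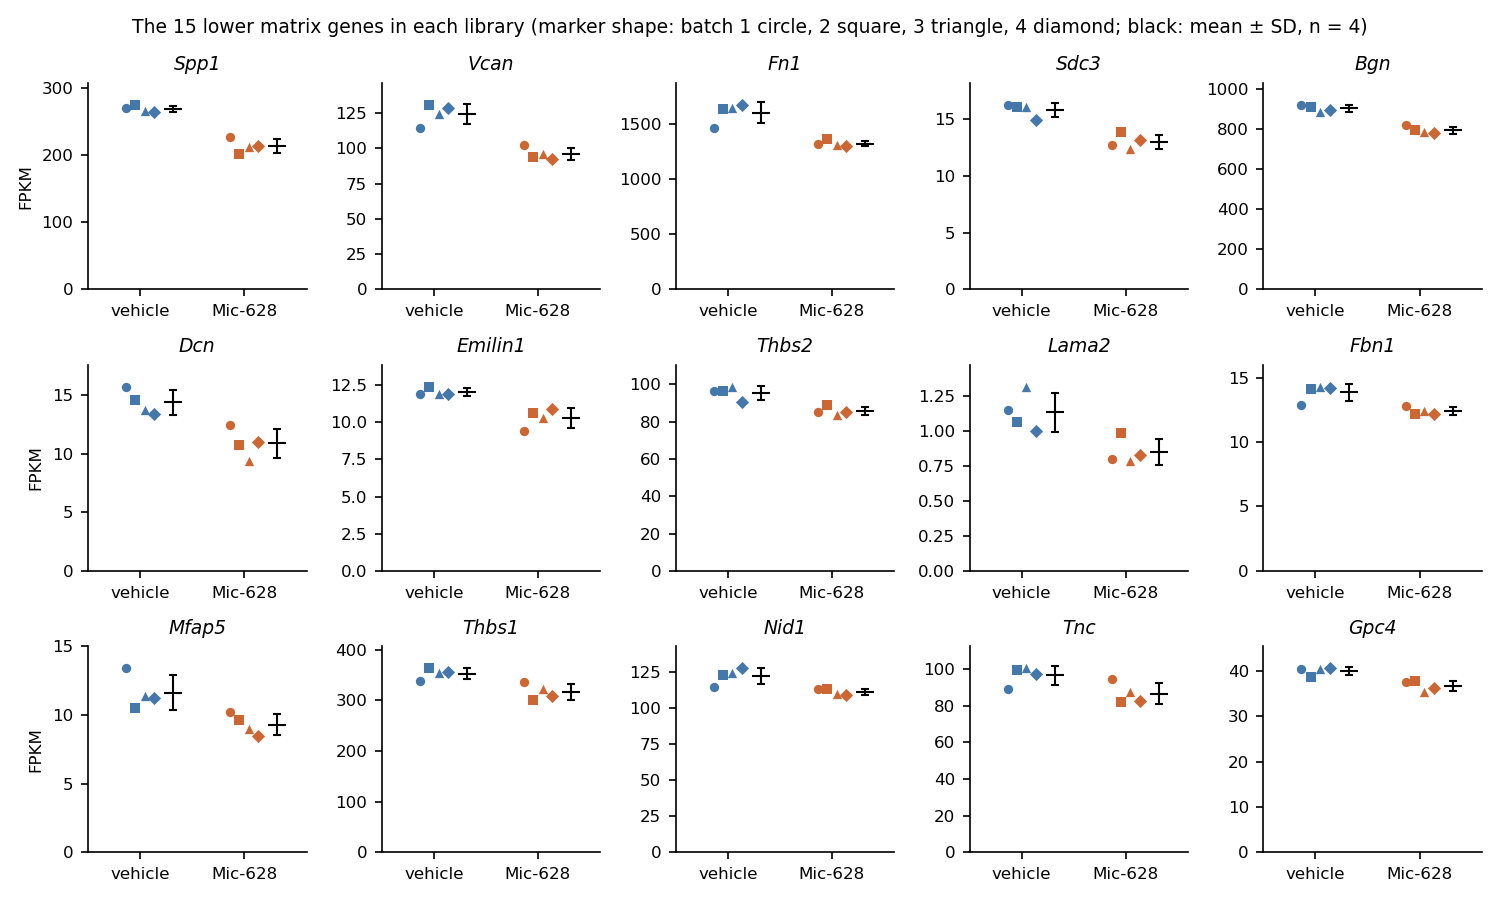
FPKM (y axis from 0) of the 15 lower genes in each library, with marker shape giving the batch and black bars the mean ± SD over 4 libraries. Treated libraries lie below all vehicle libraries in 14 of the 15 panels, Tnc being the exception.

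The secreted proteoglycans had the most negative median of the 5 classes, -0.39, and 3 of 4 tested were lower. Versican, the product of Vcan (chromosome 13, 89805175 to 89890363, minus strand), is a large chondroitin sulfate proteoglycan that binds hyaluronan. Vcan had 114.3, 130.6, 124.0 and 128.6 FPKM with vehicle and 102.0, 93.8, 96.0 and 92.6 FPKM with Mic-628. Batch 1 showed the smallest gap, with the lowest vehicle and the highest treated value. Over all libraries Vcan fell by 0.37 on the log2 scale (-0.37, SE 0.0395, edgeR adjusted p = 6.49e-07). The measured Vcan transcript has 2296 exonic bases, 18.5% of the longest one in an annotation of build GRCm38.p6. That annotation is not the one behind the counts, which are on mm39. The FPKM of Vcan describes the short measured model, and differences between its splice forms cannot be read from the row. The Dcn model, likewise, has 37.1% of the bases of the longest one.

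Biglycan and decorin are small leucine-rich proteoglycans that bind collagen fibrils and TGF-beta. Bgn (chromosome X, 72527208 to 72539539, plus strand) had 918.7, 911.1, 884.8 and 894.3 FPKM with vehicle and 819.2, 792.2, 784.0 and 777.7 FPKM with Mic-628. The gap between its groups was wider than either group's range (log2 fold change -0.19, SE 0.0303, edgeR adjusted p = 0.000321). Dcn (chromosome 10, 97315471 to 97354005, plus strand) was far weaker, with 15.7, 14.6, 13.7 and 13.4 FPKM with vehicle and 12.4, 10.7, 9.38 and 11.0 FPKM with Mic-628. Its fall was among the largest (log2 fold change -0.41, SE 0.0676, edgeR adjusted p = 0.000403). Lum, encoding the related lumican, had an even lower point value, -0.51, but only 15.5 to 33.0 counts per library. Its 95% interval of -0.89 to -0.12 was wide and it was not called (edgeR adjusted p = 0.141), although its groups did not overlap at 0.49 to 0.599 FPKM with vehicle and 0.323 to 0.424 with Mic-628. Fmod (fibromodulin) had at most 2 counts in any library.

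Of 12 elastic fibre and microfibril genes, 7 were tested and 3 were lower (median log2 fold change -0.10). Elastic fibres have a core of elastin on a scaffold of fibrillin microfibrils, to which fibulins, EMILIN 1 and microfibril-associated proteins attach. Fbn1, the fibrillin 1 gene, had 12.9, 14.1, 14.3 and 14.2 FPKM with vehicle and 12.8, 12.2, 12.4 and 12.2 FPKM with Mic-628. The low vehicle replicate 1 left almost no gap to the treated libraries. The log2 fold change of Fbn1 was -0.16 (SE 0.0359, edgeR adjusted p = 0.00773, 0.102 with the block in DESeq2, and 0.134, 0.121 and 0.0599 without batch 2, 3 or 4). Emilin1 had 11.9, 12.4, 11.9 and 11.9 FPKM with vehicle and 9.39, 10.6, 10.3 and 10.9 FPKM with Mic-628. The fall of Emilin1 was widest in batch 1 (log2 fold change -0.22, SE 0.0438, edgeR adjusted p = 0.00303, and 0.0739 with the block in DESeq2). Mfap5, for a small glycoprotein of microfibrils, had 13.4, 10.5, 11.4 and 11.2 FPKM with vehicle and 10.2, 9.6, 8.95 and 8.43 FPKM with Mic-628. Vehicle replicate 1 was its highest library, unlike Fn1 and Fbn1, where it was the lowest of the vehicle libraries. With Mic-628 it was lower by 0.32 (log2 fold change -0.32, SE 0.0735, edgeR adjusted p = 0.00956, 0.117 with the block in DESeq2 and 0.0882 without batch 3).

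The most abundant genes of the class were not called. Fbln2 had 454.1, 487.8, 484.8 and 489.6 FPKM with vehicle and 464.2, 477.3, 477.0 and 477.9 FPKM with Mic-628. All treated values of Fbln2 fell within the vehicle range (log2 fold change -0.01, 95% interval -0.08 to 0.05, edgeR adjusted p = 0.87). Efemp1 had 324.2, 316.5, 318.5 and 333.0 FPKM with vehicle and 329.5, 314.1, 316.4 and 306.8 FPKM with Mic-628. Its groups overlapped (log2 fold change -0.03, 95% interval -0.09 to 0.04, edgeR adjusted p = 0.714). For Fbln2 and Efemp1 the intervals leave room for a fall of at most 5.4% and 6.31%. Fbln5 and Efemp2, the fibulins 5 and 4 needed for elastic fibre assembly, had log2 fold changes of -0.10 and -0.08 (edgeR adjusted p = 0.0649 and 0.174) and groups that did not overlap. Fbln5 was called without vehicle replicate 4 (-0.12, adjusted p = 0.0497) and by DESeq2 without the block (0.0465). Eln, Fbn2, Mfap2 and Fbln1 had at most 9 counts in any library and Mfap4 had 0, so elastin itself was at 0 to 0.018 FPKM in these cells.

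All 10 basement membrane genes were tested, and 2 were lower (median log2 fold change -0.07). Laminins are trimers of an alpha, a beta and a gamma chain. Nid1, for nidogen 1, which links laminin to collagen IV, had 114.8, 122.6, 124.2 and 127.6 FPKM with vehicle and 113.2, 113.0, 109.7 and 109.3 FPKM with Mic-628. The groups came nearest to each other in their replicate 1 libraries. The log2 fold change of Nid1 was -0.14 (SE 0.0337, edgeR adjusted p = 0.018, and 0.0944 with the block in DESeq2). The Nid1 call was lost on leaving out any of vehicle replicates 2, 3 and 4 or Mic-628 replicates 3 and 4 (adjusted p = 0.0612, 0.0683, 0.0675, 0.0815 and 0.0605). Lama2, the laminin alpha 2 chain gene, was weak, with 1.15, 1.07, 1.32 and 1.0 FPKM with vehicle and 0.798, 0.989, 0.789 and 0.832 FPKM with Mic-628. Between 148.5 and 282.0 counts per library lay behind these values, and the groups nearly met at vehicle replicate 4 and Mic-628 replicate 2. The log2 fold change of Lama2 was -0.41 (SE 0.0898, edgeR adjusted p = 0.00771, 0.157 with the block in DESeq2 and 0.162 without batch 3).

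The laminin chains expressed most were Lamb1 and Lamc1, the beta 1 and gamma 1 chains. Lamb1 had 75.3, 76.8, 79.7 and 80.4 FPKM with vehicle and 72.5, 74.1, 75.7 and 71.4 FPKM with Mic-628. It was lower in each of the 4 batches, but the groups overlapped and it was not called (log2 fold change -0.09, edgeR adjusted p = 0.133). Lamc1 ranged from 32.9 to 37.5 FPKM with a log2 fold change of 0.03 (95% interval -0.04 to 0.10, edgeR adjusted p = 0.723). Lamb2, Lama4 and Lama5 had log2 fold changes of -0.06, -0.0029 and 0.08 (edgeR adjusted p = 0.456, 0.999 and 0.625). Lama4, at 51.0 to 88.0 counts per library, had an interval of -0.29 to 0.28. Nid2 had the largest positive value of all 38 genes, 0.22 (95% interval -0.02 to 0.46, edgeR adjusted p = 0.345). Its row overlaps Rtraf on the opposite strand, which had 2021% of its count, so the level of Nid2 is uncertain if strand was not used in counting. Hspg2 (perlecan) and Agrn (agrin), large heparan sulfate proteoglycans, had log2 fold changes of -0.09 and -0.07 (edgeR adjusted p = 0.395 and 0.399). In both, vehicle replicate 1 was the lowest vehicle library, at 32.1 FPKM for Hspg2 against 38.8 to 40.9 in the other 3.

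Without that library, 5 basement membrane genes were called lower: Lama2, Nid1, Hspg2 (-0.16, edgeR adjusted p = 0.00105), Agrn (-0.12, 0.0486) and Lamb1 (-0.10, 0.0464). Transcript length moved with this library. Deviations were taken from the group median of each row. In vehicle replicate 1, their median was 0.045 (log2) for rows with under 1000 exonic bases and -0.055 for those with 6000 or more. In the other 7 libraries this median stayed between -0.029 and 0.03. Between the groups, the median log2 fold change by length ran from -0.013 to 0.008, smaller than any called change. The part of length in these values was not tested. Rows on the opposite strand that overlap Thbs1, Fbn1, Nid1, Hspg2 and Sdc3 had 2.58% to 4.27% of these genes' counts. The log2 fold changes of these rows were -0.12 to -0.31. Such rows over Ecm1 and Matn2 had 14.4% and 4.28% of the gene's count and log2 fold changes of -0.1 and 0.07. It is not known whether reads of such pairs were separated by strand.

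**Figure D4:**
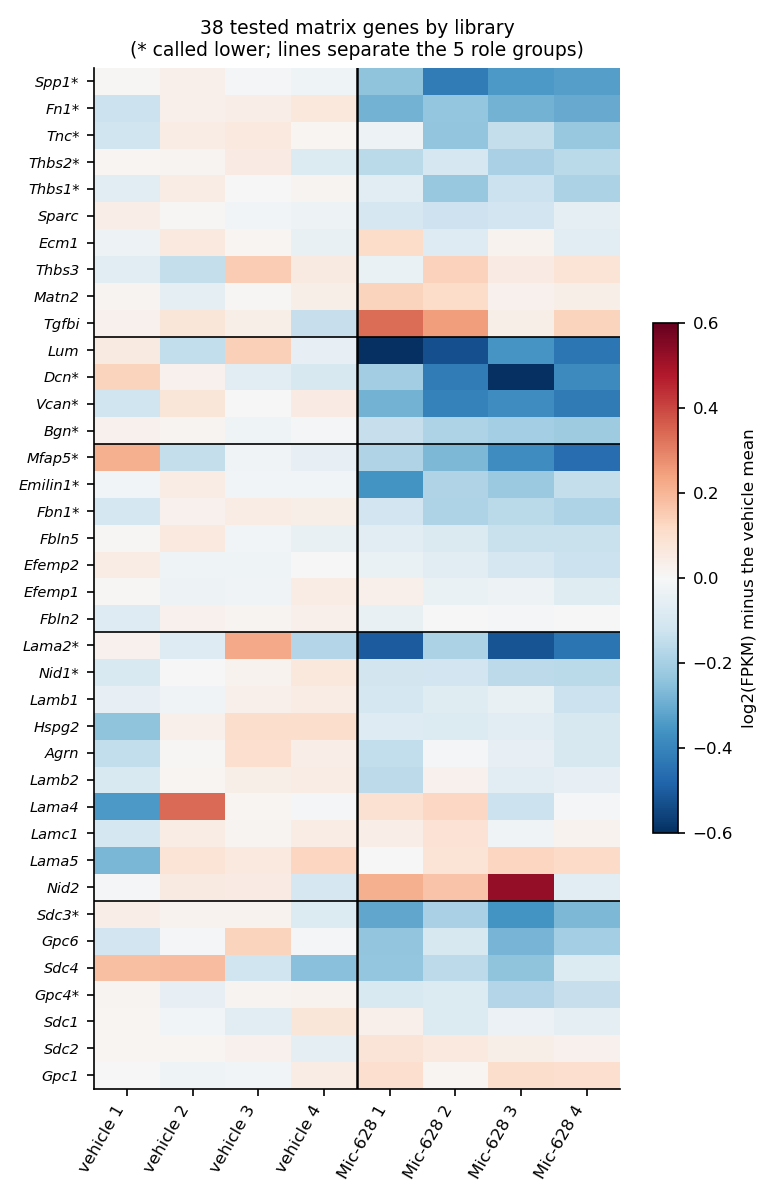
Log2 of FPKM minus the vehicle mean for the 38 tested genes (rows) in the 8 libraries (columns), blue below and red above, with asterisks on the 15 lower genes. The colour scale ends at 0.6 on either side, and drawn values run from -0.75 to 0.53. Vehicle replicate 1 is blue for Hspg2, Lama4 and Lama5, and the treated columns are blue for most of the proteoglycan rows.

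Cell-surface proteoglycans carry heparan sulfate and act as co-receptors for growth factors: syndecans cross the membrane and glypicans are held by a lipid anchor. All 7 were tested, and 2 were lower (median log2 fold change -0.12). Sdc3, for syndecan 3 (chromosome 4, 130519848 to 130553630, plus strand), had 16.2, 16.0, 16.0 and 14.9 FPKM with vehicle and 12.7, 13.8, 12.3 and 13.1 FPKM with Mic-628. The lowest vehicle library was above the highest treated one (log2 fold change -0.28, SE 0.039, edgeR adjusted p = 4.07e-05). Gpc4, for glypican 4 (chromosome X, 51141898 to 51254129, minus strand), had 40.4, 38.6, 40.4 and 40.6 FPKM with vehicle and 37.5, 37.8, 35.4 and 36.3 FPKM with Mic-628. Its gap between groups was small, and its log2 fold change of -0.12 was the smallest of those called (SE 0.0338, edgeR adjusted p = 0.035). The Gpc4 call was lost with the block in edgeR and DESeq2 (0.0739 and 0.449) and on leaving out any of vehicle replicates 3 and 4 or Mic-628 replicates 3 and 4 (0.0998, 0.0795, 0.154 and 0.0976).

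Sdc4, a syndecan of focal adhesions, had 32.9, 33.0, 26.7 and 24.4 FPKM with vehicle and 24.7, 26.0, 24.5 and 27.4 FPKM with Mic-628. Vehicle replicates 1 and 2 were high, and replicates 3 and 4 lay near the treated libraries. Sdc4 was not called (log2 fold change -0.19, edgeR adjusted p = 0.124), but was called without vehicle replicate 4 (-0.27, adjusted p = 0.00371). Gpc6 had a log2 fold change of -0.21 (95% interval -0.36 to -0.05, edgeR adjusted p = 0.132) from 177.0 to 263.0 counts per library. Sdc1, Sdc2 and Gpc1 had log2 fold changes of -0.04, 0.05 and 0.08 (edgeR adjusted p = 0.681, 0.481 and 0.235). Across the 4 syndecans, levels ran from 12.3 to 33.0 FPKM.

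To ask whether related genes changed by different amounts, the log2 ratio of FPKM within 9 pairs was compared between groups by exact two-sided permutation of the 8 libraries, for which the smallest possible p is 0.0286. At an adjusted p under 0.05, 0 pairs differed, and 1 did before adjustment over the 9. With so few libraries, 6 of the 9 pairs would have had to reach the smallest possible p for any to pass after adjustment, so this count of 0 says little. The 95% interval of the difference left out 0 in 4 pairs. The pair that differed before adjustment was Nid1 to Nid2, whose ratio was lower with Mic-628 by 0.34. This difference was -0.34 (95% interval -0.68 to -0.01, exact p = 0.0286, adjusted 0.129). Nid2 had 91.5 to 142.0 counts per library, and its level is uncertain if reads of the overlapping Rtraf were not separated by strand. The differences were 0.28 (0.08 to 0.48) for Gpc1 to Gpc6, 0.22 (0.01 to 0.42) for Bgn to Dcn and 0.06 (0.01 to 0.10) for Efemp1 to Efemp2, each with an exact p of 0.0571 and an adjusted p of 0.129. Thbs1 and Thbs2, both lower, had a ratio of 1.88 ± 0.0757 (SD, n = 4) with vehicle and 1.89 ± 0.0997 (SD, n = 4) with Mic-628, and the difference of 0.0018 had an interval of -0.15 to 0.15. The differences were 0.09 (-0.02 to 0.20) for Fbln2 to Fbln5, 0.14 (-0.18 to 0.47) for Sdc1 to Sdc4, -0.03 (-0.12 to 0.07) for Lamb1 to Lamb2 and -0.07 (-0.35 to 0.22) for Lama4 to Lama5. In 4 further pairs 1 gene or both were too weak to test.

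Other genes of the matrix were counted in the same fit. Of 128 genes in 6 lists, 89 were tested, 6 were higher and 10 lower, with a median log2 fold change of -0.03. Among 41 other matrix glycoproteins, 28 were tested, 3 were higher and 5 lower. Tnxb, for tenascin X, was higher by 0.90 (0.609 ± 0.0456 to 1.13 ± 0.0433 FPKM, SD, n = 4, edgeR adjusted p = 2.79e-09), Svep1, for a large cell adhesion protein, was lower by 0.63 on the log2 scale (log2 fold change -0.63, edgeR adjusted p = 1.44e-05), and Tinagl1, a basement membrane protein gene, had -0.21 (0.000144). The Tnxb row overlaps a row on the opposite strand with 84.1% of its count, whose log2 fold change was 0.02, so its level is uncertain. Of 5 other proteoglycan cores tested of 20, 2 were higher: Cspg4 (NG2) by 0.21 and Tgfbr3 (betaglycan) by 0.15 (edgeR adjusted p = 0.000856 and 0.00912). Of 24 tested genes that build or modify the sugar chains of proteoglycans, 2 were lower, Csgalnact1 (-0.27, edgeR adjusted p = 0.00483), which starts chondroitin sulfate chains, and Ext1 (-0.13, 0.0231), which extends heparan sulfate. Of 16 tested receptor genes for fibronectin, laminin and thrombospondin, Itgb5 alone was called (-0.16, edgeR adjusted p = 0.00342). Among 13 tested genes of TGF-beta ligands, receptors and signalling, 1 was higher and 2 were lower. The lower genes were Tgfbr1 (-0.17, edgeR adjusted p = 0.00607), a TGF-beta receptor gene, and Bmp1 (-0.15, 0.0355), for a protease that matures matrix proteins. Of 5 other laminin chains 3 were tested and 0 called, with 0 at an unadjusted p under 0.05. The calls in these lists also depended on the model. With the batch block in DESeq2, 5 other matrix glycoproteins, 1 proteoglycan core, 1 receptor gene and 1 gene of the TGF-beta list were called. No gene of the sugar chain list was called there. Without batch 3, 0 sugar chain genes and 0 receptor genes were called.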

How the data were processed

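Exon read counts and FPKM values for the same rows were deposited by the authors. Tools named in the submitters' processing notes are HOMER 4.11, STAR 2.7.10a and bcl2fastq, with build mm39 (GRCm39), and per the labels' protocols libraries were stranded and paired-end. Whether counting used strand is not given in the sources used here. The deposited counts come in steps of 0.5 and were treated as estimated counts. FPKM recomputed from the authors' counts, exon lengths and header totals (19.6 M to 25.1 M) differed from the deposited FPKM by at most 0.0005. The members and gene lists were chosen with earlier results of these data known. Every member is named, and those called, with the 2 most abundant of each class, are given by library. From the other lists up to 3 called genes with the smallest p are named, except that 1 higher gene of the TGF-beta list is counted but not reported here by name.

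Rounded counts entered edgeR 4.0.16 in R 4.3.3 (filterByExpr, minimum count 10, TMM, quasi-likelihood F test without a block, Benjamini-Hochberg over 17128 rows). The standard error is the size of the log2 fold change divided by the square root of F. Alternatives used DESeq2 1.42.0, limma 3.58.1 (voom, and trend on log2(FPKM + 1) or log2(FPKM + 0.1)), other scalings and filters, the batch block, and leaving out libraries or batches. The labels' shared batches pair the libraries, yet the deviations of same-numbered libraries from their group means correlated at -0.0925, 0.0744, -0.0213 and -0.0949 over 10292 genes, within the -0.117 to 0.141 of other pairs. Replicates differed by more than counting noise (chi-square per gene 1.83 to 6.37). Tested on simulated data of this comparison over 17128 rows, the fit found 23 of 50 rows changed 1.2-fold, 35 of 50 changed 1.5-fold, 45 of 50 changed 2-fold, 48 of 50 changed 3-fold, and 10 unchanged rows. Promoter windows were matched by symbol and start on GRCm38.p6, and no coordinates were converted between builds. Figures were drawn with matplotlib 3.10.9.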

Additional observations from a re-analysis of the deposited data

Results flagged for a closer look

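In 4 of 76 sets of 4 libraries (38 genes in 2 groups), 1 library stood apart from the other 3 by Dixon's gap test, where chance flags about 1 in 20. Fbn1 was at 164.3 CPM in vehicle replicate 1 and 180.4 to 183.5 CPM in the other vehicle libraries. Fbln2 was at 2327.7 CPM in the same library against 2488.4 to 2519.5 CPM. Emilin1 was at 51.5 CPM in vehicle replicate 2 against 49.2 to 49.4 CPM. Gpc1 was at 110.7 CPM in Mic-628 replicate 2 against 117.9 to 118.0 CPM.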

How the results depend on the processing

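Over 24 alternatives and 908 values of single genes, 797 kept their direction and call, 77 lost the call, 13 gained it and 21 turned sign, none of these 21 in a called gene. The cause was not tested. The count of members called, 15, was 7 in DESeq2 with the batch block, 5 by limma-trend on FPKM with 1 or with 0.1 added, 3 by the former without a filter, and 8 (7 lower) without batch 3; with single libraries left out it was 12 to 18. In edgeR with the replicate block it was 13. The count of higher members was 1 (Tgfbi) without a low-count filter, without Mic-628 replicate 3 and without batch 3, and 0 to 1 over single libraries. Of all rows, 749 were called, 243 in DESeq2 with the block, 277, 273 and 170 by the 3 FPKM fits, 331 and 292 without batch 2 and 3, and 426 to 802 without single libraries, the lowest without vehicle replicate 2. By class, the lower members without single libraries were 3 to 5 adhesive, 3 secreted proteoglycan, 3 to 4 elastic fibre, 1 to 5 basement membrane and 1 to 2 cell-surface genes. Values that turned sign were near 0: Thbs3 -0.02 without batch 2; Ecm1 -0.05 to 0.02 without single libraries and 0.05 without batch 2; Efemp1 0.00302 without batch 4; Lama5 -0.00402 to 0.12 and Lamc1 -0.0018 to 0.05 without single libraries, both lowest without vehicle replicate 1, and Lamc1 -0.01 without batch 1. Lama4 was 0.01 in DESeq2 with the block, 0.00138 in DESeq2, 0.01 by voom, 0.00329 with library size only, 0.0026, 0.01 and 0.0026 by FPKM, -0.10 to 0.12 without single libraries, and 0.09 and 0.04 without batch 2 or 3. The ratio of Thbs1 to Thbs2 was -0.03 to 0.04 and that of Lama4 to Lama5 -0.12 to 0.02 without single libraries. For the pair ratios a sign-flip test within batches cannot go below p = 0.125, and with 3 libraries against 4 the permutation cannot go below 0.0571. Weakly counted genes (Lum, Lama4, Nid2) carry the widest intervals.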
